A study of Mus musculus with 47 samples.

Results

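RNA from the brains of male 3xTg mice on a valine-restricted diet (ValR) was compared with RNA from Control-fed males across all measured genes. The 8 libraries compared were the 4 ValR libraries numbered 7, 9, 10 and 12 and the 4 Control libraries numbered 1, 3, 4 and 5, out of 47 samples in the series. Mice of every group carried the 3xTg genotype, a model of Alzheimer's disease (AD) that carries human APP and tau transgenes, so the Controls carried the disease alleles too. Feeding of the Control diet, an amino acid defined diet, or of the ValR diet began at 6 months of age and lasted 9 months. The labels give the tissue as brain while 1 protocol field names liver, and the methods name the left hemisphere. Albumin (Alb), the defining transcript of hepatocytes, did not exceed 1.21 CPM, counts scaled to a common library size, in any of the 8 libraries. The study counts its RNA-seq groups in mice, the labels identify no animal, and p-values measure the spread between these libraries.

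Valine is an essential branched-chain amino acid (BCAA). It is transaminated by the BCAT enzymes, decarboxylated by the branched-chain ketoacid dehydrogenase complex and broken down through methylacrylyl-CoA and propionyl-CoA to succinyl-CoA. Brain tissue is a patchwork of regions with very different transcriptomes. Granule and Purkinje cells of the cerebellum, glycinergic and monoaminergic neurons of the brainstem and spinal cord, and the projection neurons of cortex and striatum each express genes that the other regions lack. In bulk RNA, fewer cells of a type and less RNA per cell cannot be told apart.

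Total counts ran from 15281658 to 18809144 in the Control libraries and from 13464879 to 17161791 in the ValR libraries, and the exact permutation test gave p = 0.171 for the difference. The number of genes with a count was 22257 to 22886 and 22548 to 22749. Mitochondrial genes took 4.27% to 4.49% of the counts in Control and 3.65% to 5.18% in ValR (exact permutation p = 0.771). Xist reached at most 8 counts and each Y-linked gene checked at least 199 counts in the male libraries, as their labels say. No 2 libraries of a group differed by less than counting noise.

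The regional content of the libraries separated the groups, on marker lists chosen with earlier results of these data known. For this, the log2 CPM values of the marker genes on a list were averaged into a score per library. The cerebellar score (granule and Purkinje cells) ran from 0.54 to 2.12 in the Control libraries and from 5.66 to 7.15 in the ValR libraries. The score of brainstem and spinal cord neurons ran from -2.10 to -1.09 in Control and from 1.71 to 3.04 in ValR. The forebrain score (cortical and striatal neurons) went the other way, from 4.28 to 6.56 in Control and from 0.93 to 1.37 in ValR. None of the 3 scores overlapped between the groups.

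A hindbrain score, the mean of the cerebellar and brainstem scores minus the forebrain score, was -7.19, -5.94, -3.77 and -6.38 in Control 1, 3, 4 and 5. It was 3.66, 2.98, 3.86 and 3.47 in ValR 7, 9, 10 and 12. The means were -5.82 ± 1.46 (SD, n = 4) and 3.49 ± 0.38 (SD, n = 4), a difference of 9.31 log2 units (two-sided exact permutation p = 0.0286, the smallest that 4 against 4 allows). As the lists were chosen with earlier results known, this p-value is a description. Control 4 stood nearest to the ValR libraries, and the difference was 9.99 without it.

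The other libraries of the series placed these values. The 3 IleR males scored 1.47 to 3.15 and the 3 LeuR males -3.30 to 2.98. The 6 female Control libraries spanned -7.24 to 0.18 and the 6 female ValR libraries -6.36 to 0.47, and the female ValR minus Control difference was 0.36 (exact permutation p = 0.833). The 5 female IleR libraries spanned -6.78 to -0.58 and the 6 female LeuR libraries -6.87 to 3.13. Every male Control lay below 0 and every male ValR library above it. Within the male groups, diet and regional content cannot be told apart.

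**Figure D1:**
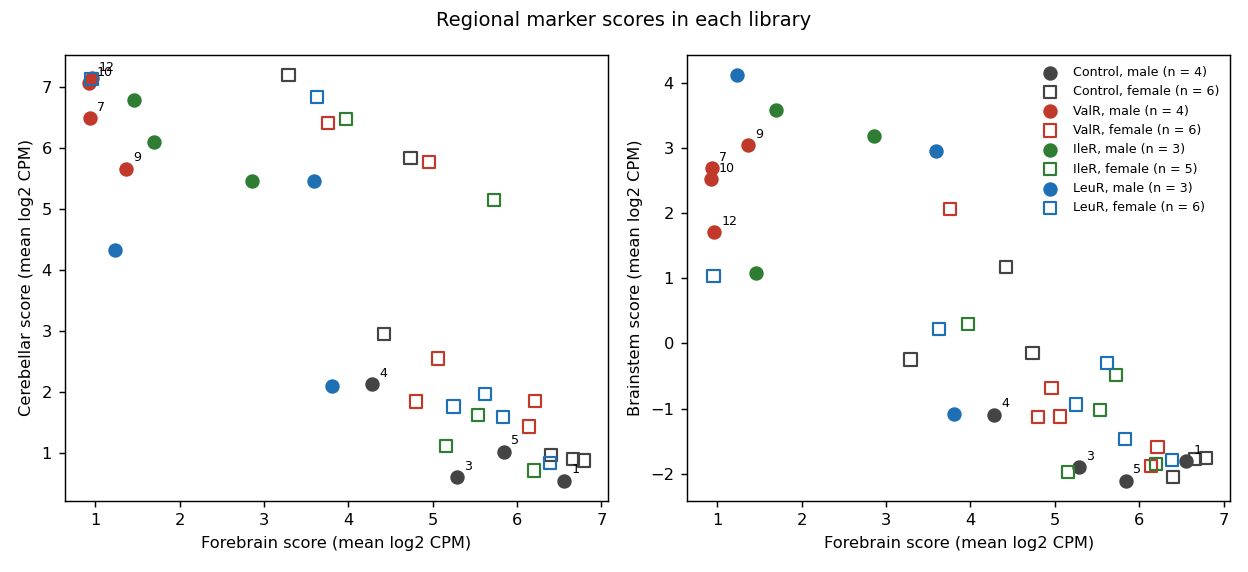
Each point is 1 library, placed by its forebrain score on the horizontal axes and by its cerebellar score (left) or brainstem score (right) on the vertical axes, all as mean log2 CPM. Filled circles are males, open squares are females, colours are diets, and the 8 libraries compared carry their numbers. The 4 male ValR libraries sit at a forebrain score of 0.93 to 1.37 with a cerebellar score of 5.66 to 7.15, and the 4 male Controls lie at 4.28 to 6.56 and 0.54 to 2.12.

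Across the 22197 genes tested, 2470 rose and 2742 fell in ValR-fed males (edgeR quasi-likelihood test, Benjamini-Hochberg adjusted p under 0.05). That is 23.5% of the genes, 11.1% up and 12.4% down. For 26.6% of the tested genes the ValR and Control libraries did not overlap, whether or not the gene passed the test. The median log2 fold change of all tested genes was 0.032.

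Genes were then divided by a property measured in other animals, the 23 female libraries. A gene was called regional when its level in females followed the 3 scores with diet held in the model (joint F test, adjusted p under 0.05) or when it stood on a list of regional markers, and its side was the sign of its slope on the hindbrain score. Of 20344 genes tested in females, 38.8% passed that test. In males, the hindbrain side held 3886 tested genes, the forebrain side 3998 and the rest class 12192, and 2121 genes were unclassed because they were too low in females to be tested.

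The direction of change in ValR-fed males followed these sides almost without exception. On the hindbrain side 1936 genes rose and 0 fell, 49.8% of the class. On the forebrain side 2207 genes fell, 55.2%, and 4 rose. In the rest class 361 genes rose and 514 fell, 7.18% together, against 23.5% of all tested genes. Unclassed genes added 169 up and 21 down. The rest counts depended on single libraries, with 166 genes up without Control 1, 177 without Control 3, 203 without ValR 7, 198 without ValR 10 and 216 without ValR 12, and 340 down without Control 3 and 337 without ValR 10. Of all differentially expressed genes (DEGs), 37.1% were on the hindbrain side, 42.4% on the forebrain side, 16.8% in the rest class and 3.65% unclassed.

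The 4 forebrain-side genes that rose were the vesicular acetylcholine transporter Slc18a3, the choline transporter Slc5a7 and the homeobox genes Gbx2 and Otp. Otp passed the filter on low values only through libraries of a restricted diet. Slc18a3 stood at 3.27, 0.52, 0.45 and 0.77 CPM in the Controls and at 10.5, 13.9, 13.8 and 2.44 CPM in ValR. Cholinergic neurons lie in the striatum as well as in the motor nuclei of brainstem and spinal cord. The groups overlapped, with Control 1 above ValR 12, the ValR library with the lowest brainstem score.

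The rest class was not free of the regional pattern. Of its 875 DEGs, 833 (95.2%) changed in the direction of their female slope, and 42 did not. Among all 12192 rest genes the share with the same sign was 70.8%. The median size of change of the rest DEGs was 0.871 log2 units, where the female slope multiplied by the male score difference gave 0.441. Rest DEGs were selected for passing in males and for not passing the region test in females. Both selections favor a first value above the second. On the hindbrain side the same medians were 0.818 and 1.02, and on the forebrain side 0.969 and 1.06. These are counts and medians across genes, which are not independent replicates.

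**Figure D2:**
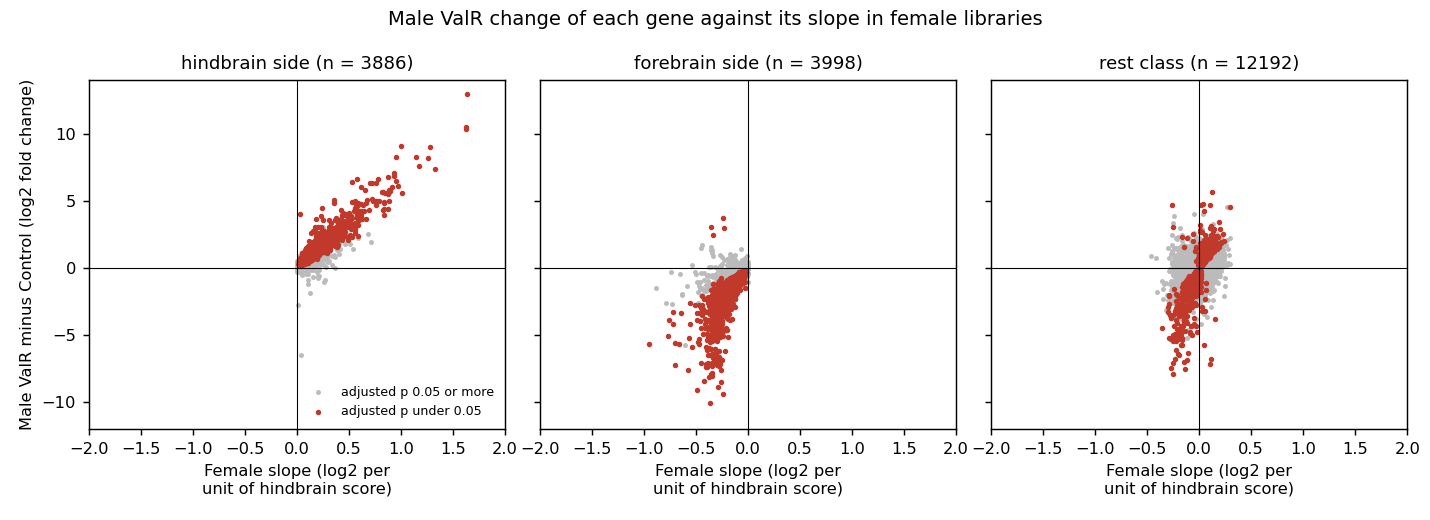
Each point is 1 gene, with its slope on the hindbrain score over female libraries on the horizontal axis (log2 per score unit) and its male ValR minus Control log2 fold change on the vertical axis, in 3 panels for the hindbrain side, the forebrain side and the rest class. Red points passed adjusted p under 0.05. All 1936 red genes of the first panel lie above 0, 2207 of 2211 in the second lie below 0, and in the third 833 of 875 lie on the side that their slope gives.

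A further set of fits held regional content in the model. With the hindbrain score as a covariate in the 14 male libraries, 0 genes passed (edgeR, 1407 at unadjusted p under 0.05), and the median standard error of a log2 fold change rose from 0.253 to 0.629. With all 37 libraries of both sexes in 1 fit and the 3 scores as covariates, an alternative chosen after seeing the data, 0 genes passed as well (edgeR, 1661 of 22465 at unadjusted p under 0.05). There the median standard error was 0.317 and the smallest adjusted p was 0.115, for Slc18a3. When each gene's female slopes on the scores were instead subtracted from the male counts as offsets, 175 genes rose and 135 fell. The offsets were fixed, without the error of the slopes. Brainstem scores of ValR males reached 3.04, above the highest female score of 2.06, so these calls are a description. No gene described here passed in the fit of all 37 libraries, and its values from that fit are given where they bear on a result.

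Among protein-coding DEGs whose groups did not overlap and whose log2 CPM averaged 1 or more, 5 of the 8 largest rises were cerebellar markers. Gabra6 (ENSMUSG00000020428, chromosome 11, 42306437 to 42321072 in GRCm38), the GABA-A subunit of mature granule cells, had at most 1 count in any Control library. It stood at 233, 117, 432 and 389 CPM in ValR 7, 9, 10 and 12, which is at least 1592-fold above the level of 3 counts per library. Cbln3, a granule cell synaptic organizer, was 0.27, 0.23, 0.45 and 1.04 CPM in the Controls and 660, 323, 941 and 1068 CPM in ValR, a log2 fold change of 10.47 ± 1.42 (SE, adjusted p = 0.000277). The groups lay far apart for both genes, and ValR 9 was the lowest ValR library for each.

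Fat2, a granule cell cadherin, rose by 10.30 ± 1.46 log2 units (adjusted p = 0.000329). The Purkinje cell gene Ppp1r17 rose by 8.29 ± 0.77, and Crtam, an adhesion molecule, was at least 229.8-fold higher. Pcp2, also of Purkinje cells, was 0.27, 0, 0.58 and 0.28 CPM in Control and 115, 56.7, 189 and 211 CPM in ValR. Nrk, a kinase, was 0.20, 0.058, 0.26 and 0 CPM in Control and 17.1, 9.74, 33.0 and 38.4 CPM in ValR. Like Gabra6, these 2 had no count in at least 1 Control and passed the filter on low values only through libraries of a restricted diet, so their levels are a description. Of 10 granule cell markers 9 rose, with a median log2 fold change of 4.55, and all 10 Purkinje cell markers rose, with a median of 3.93. Of these rises 8 and 6 were of genes detected in every Control library. None fell, and 11.1% of all tested genes rose. These medians were 0.40 and -0.0018 in the fit of all 37 libraries. That fit holds the mean of these same markers as a covariate, which keeps them near 0 by construction. The granule cell marker that did not pass was Barhl1, at 13.4 CPM in Control 4 and at most 0.06 CPM in the other Controls, against 7.31 to 19.7 CPM in ValR.

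Genes of brainstem and spinal cord rose beside them, and their score ranked the ValR libraries in another order than the cerebellar score did. Slc6a5, the glycine transporter of glycinergic neurons, was 0.07, 0.23, 2.75 and 0.11 CPM in Control 1, 3, 4 and 5. It was 261, 393, 234 and 83.8 CPM in ValR 7, 9, 10 and 12, a log2 fold change of 8.28 ± 1.50 (adjusted p = 0.00155). ValR 9, the lowest ValR library for Gabra6, was the highest for Slc6a5, and ValR 12 was the lowest. Of the 12 markers of brainstem and spinal cord neurons 10 rose and none fell, and with each library left out in turn 6 to 9 rose, the 6 without Control 3, Control 5 or ValR 9. Slc18a3, among the 10, was on the forebrain side in females. Of the 10, 5 were detected in every Control library, and the other 5 passed the filter only through libraries of a restricted diet. The list median was 4.86, or 3.82 with genes at the detection floor in 1 group placed at their bound. It was 0.48 in the fit of all 37 libraries, which holds the mean of these same markers as a covariate. Tph2, which makes serotonin, and Fev, its regulator, were the 2 that did not pass.

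The Hox genes, which keep a record of position along the axis of hindbrain and spinal cord, were near or at 0 in every Control library. Summed over the 22 Hox genes listed, they ran from 0.068 to 0.32 CPM in Control and from 13.6 to 357 CPM in ValR. Of the 22, 14 passed the filter on low values, each only through libraries of a restricted diet, so their calls and median are not given as a result. Fitted folds of such genes depend on the prior count and are not ranked here against those of the cerebellar genes. Hoxb5 was 0 in all 4 Controls and 45.9, 68.7, 1.58 and 1.99 CPM in ValR 7, 9, 10 and 12. Hoxb8, which is expressed in the spinal cord, was 63.2 and 57.4 CPM in ValR 7 and 9 and 0 in ValR 10, ValR 12 and every Control. Hoxb6 followed it, at 18.4 and 23.1 CPM in ValR 7 and 9 and 0 and 0.26 CPM in ValR 10 and 12. The ValR libraries thus fell into 2 pairs for these genes. Both were below the count filter and had no test, and both were chosen after their values were seen.

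**Figure D3:**
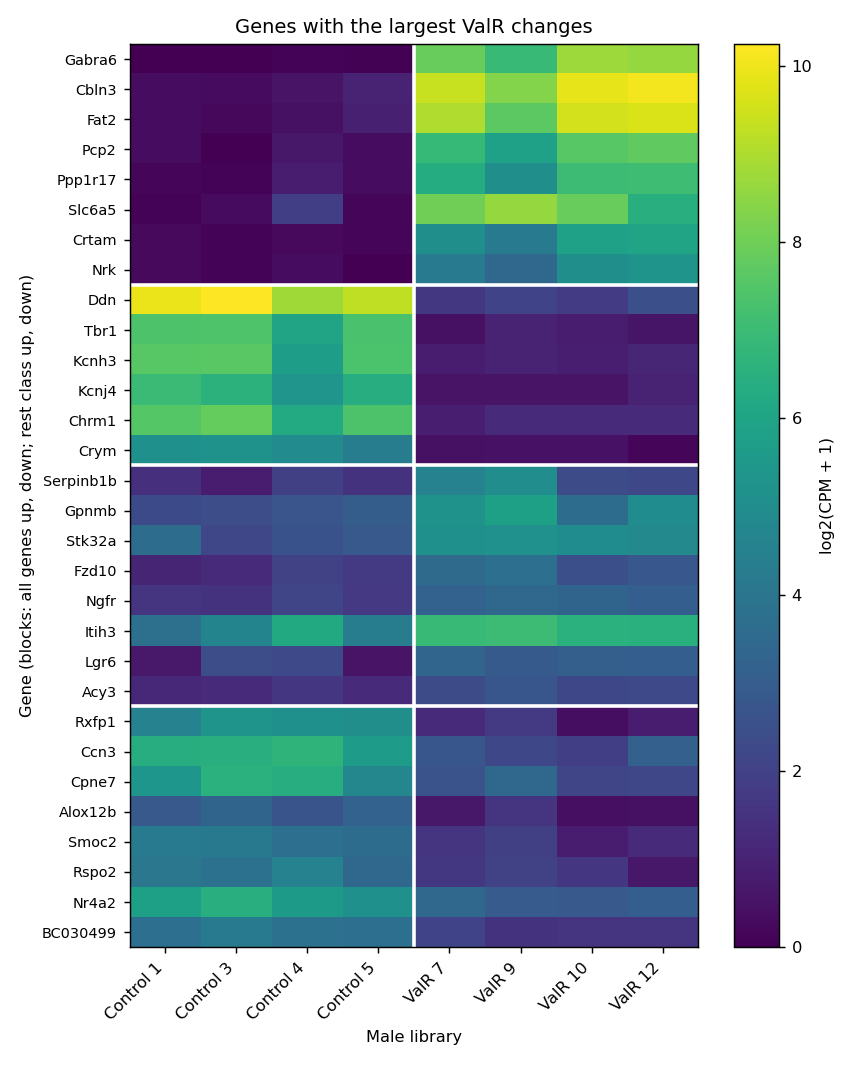
Heat map of log2(CPM + 1) for genes with the largest changes among those past the threshold, without overlap between the groups, averaging at least 1 on the log2 CPM scale, as rows in 4 blocks (largest rises, largest falls, largest rises and falls of the rest class) and the 8 male libraries as columns. The blocks switch between dark and bright at the line between Control 5 and ValR 7, and the contrast is weaker in the 2 rest blocks, where Serpinb1b and Gpnmb reach their highest levels in ValR 7 and ValR 9.

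Under the same conditions the largest falls included genes of the telencephalon. Tbr1, a regulator of deep-layer cortical neurons, was 167, 171, 61.9 and 159 CPM in Control 1, 3, 4 and 5. It was 0.36, 0.95, 0.70 and 0.51 CPM in ValR 7, 9, 10 and 12, a log2 fold change of -7.78 ± 0.89 (adjusted p = 0.000131). Control 4 held the least Tbr1 of the Controls and still far more than any ValR library.

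Ddn, a dendritic protein of forebrain neurons, fell by 8.04 ± 1.36 log2 units, and the potassium channels Kcnh3 and Kcnj4 changed by -7.36 ± 1.09 and -7.15 ± 1.00. The muscarinic receptor Chrm1 fell by 7.07 ± 0.97 and Crym, a thyroid hormone binding protein, by 6.52 ± 1.29. All 12 cortical projection neuron markers fell (median -6.69), as did 7 of 8 forebrain GABA neuron markers, among them Dlx1 and Lhx6. Their median was -6.75, or -4.62 with genes at the floor at their bound, where 12.4% of all genes fell. Of the falls, 8 of 12 and 3 of 7 were of genes detected in every ValR library. The medians of these 2 lists were -3.36 and -1.17 in the fit of all 37 libraries, where the cortical markers are part of the forebrain score held as a covariate.

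Striatal markers separated the Controls from each other as well. Drd1, a dopamine receptor of medium spiny neurons, was 78.2, 9.31, 6.66 and 25.4 CPM in Control 1, 3, 4 and 5 and 0.51, 0.95, 0.12 and 0.83 CPM in ValR 7, 9, 10 and 12. Of 10 striatal markers 6 fell, where 12.4% of all genes did, and 4 did not pass the test. Of the 6, 4 were detected in every ValR library. The list median of -3.59 turned to 2.47 in the fit of all 37 libraries, where 7 of the 10 had an unadjusted p under 0.05 and 0 passed in edgeR. That fit holds the forebrain score, the mean of the cortical and striatal markers, as a covariate. The average change over both lists is thereby held near 0. Ppp1r1b (DARPP-32), 1 of the 4 striatal markers that did not pass in ValR against Control, was 491, 86.9, 39.6 and 213 CPM in Control and 116, 99.0, 109 and 125 CPM in ValR. Its levels in Control 3 and Control 4 lay below those of all ValR libraries.

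Of 8 hippocampal markers 4 fell, among them Fibcd1, Spink8 and Wfs1, and Prox1 and Tdo2, both also expressed elsewhere in brain, rose. Of the 4 falls, 3 were of genes detected in every ValR library. Here and in the next 4 lists, the share of all genes to set beside the counts is 11.1% up and 12.4% down. The list median was -1.15, and -1.75 in the fit of all 37 libraries. Of 12 midbrain markers Barhl2 rose and Pax7, which was not detected in every ValR library, fell. The list median was -1.05, or -0.13 with genes at the floor at their bound. In the fit of all 37 libraries it was -4.53, where 9 of the 12 had an unadjusted p under 0.05 and 0 passed in edgeR. Without Control 4, 4 midbrain markers rose and none fell. Midbrain genes were present in Control 4 almost alone among the Controls, with the dopamine transporter Slc6a3 at 31.2 CPM and Pax7 at 15.1 CPM, against at most 0.07 and 0.35 CPM in the other Controls. Among the 8 of 12 hypothalamic genes that were tested Otp rose and no gene fell. Otp had no count in Control 1 and Control 5 and passed the filter on low values only through libraries of a restricted diet. Cdhr1 fell among 5 olfactory bulb genes, and of 7 thalamic and habenular genes Gbx2 rose and Lef1 fell. The calls of Otp, Gbx2, Lef1 and Pax7 were each lost without 5 or 6 of the 8 libraries taken singly.

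Glial and vascular markers moved less. Summed oligodendrocyte markers ran from 4952 to 10130 CPM in Control and from 10170 to 17360 CPM in ValR, without overlap. Yet 0 of 12 markers passed in edgeR, where 23.5% of all genes did, and their median log2 fold change was 0.55. Mbp, a myelin protein, was 2198, 3317, 3782 and 4511 CPM in Control and 6332, 9072, 5716 and 5135 CPM in ValR (adjusted p = 0.0552). In the fit of all 37 libraries the median of the list was -0.057. Without Control 5, 2 of the markers rose, and without Control 4, 1 did.

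Of 11 astrocyte markers 5 rose, all on the hindbrain side, and Slc1a2 fell, where 11.1% of all genes and 49.8% of hindbrain-side genes rose and 12.4% of all genes fell. Without Control 1 or ValR 7, 3 rose, and the list median of 0.43 was -0.33 in the fit of all 37 libraries. Aldoc, an astrocytic aldolase that is also abundant in Purkinje cells, was 625, 707, 879 and 588 CPM in Control and 1680, 1517, 1401 and 1206 CPM in ValR. S100b and Aqp4, the astrocytic water channel, rose by 1.38 ± 0.27 and 1.21 ± 0.30 log2 units. Slc1a2, the main forebrain glutamate transporter, went from 3414, 3245, 1658 and 2146 CPM to 1403, 1325, 1209 and 1059 CPM.

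Of 10 homeostatic microglial genes 6 fell, all on the forebrain side, with a list median of -0.66 that turned to 0.15 in the fit of all 37 libraries. On the forebrain side 55.2% of all genes fell. P2ry12, a purinergic receptor, was 30.6, 25.9, 18.9 and 26.7 CPM in Control and 7.35, 11.3, 9.73 and 7.25 CPM in ValR. Of 16 genes of disease-associated microglia 3 rose and Lpl fell, a share near the 23.5% of all genes, with a median of 0.39 that was -0.10 in the fit of all 37 libraries. Without Control 1 or Control 3 only 1 of them rose. Spp1, which rose, was on the hindbrain side. Gpnmb and Itgax, a lysosomal glycoprotein and an integrin of plaque-associated microglia, were in the rest class.

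Markers of endothelium, mural cells, meninges, choroid plexus, ependyma and red blood cells gave 0 calls in edgeR in either direction. The choroid plexus transcript Ttr varied widely within both groups, at 2.11, 744, 2.18 and 2707 CPM in Control 1, 3, 4 and 5 and 1713, 2425, 278 and 2.44 CPM in ValR 7, 9, 10 and 12. Where 11.1% of all genes rose and 12.4% fell, the counts of the smaller lists were as follows. Of 6 oligodendrocyte precursor genes Pdgfra and Gpr17 fell, and with each library left out in turn 1 to 3 fell. Of 4 Schwann cell genes tested (of 5) 1 rose, or 0 with some single libraries left out, and Egr2 fell. The pituitary gene Tshb, the only 1 of 5 tested, rose. Acta1 and Myh4 fell among 4 skeletal muscle genes tested (of 5), and 1 of these falls was of a gene detected in every ValR library. None of the 4 liver genes tested (of 6) passed in edgeR. Among 12 pan-neuronal genes Stmn2 rose and Syt1, Map2 and Syn1 fell, with a median of -0.017. The call of Map2 was lost without Control 1, Control 3 or any single ValR library.

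**Figure D4:**
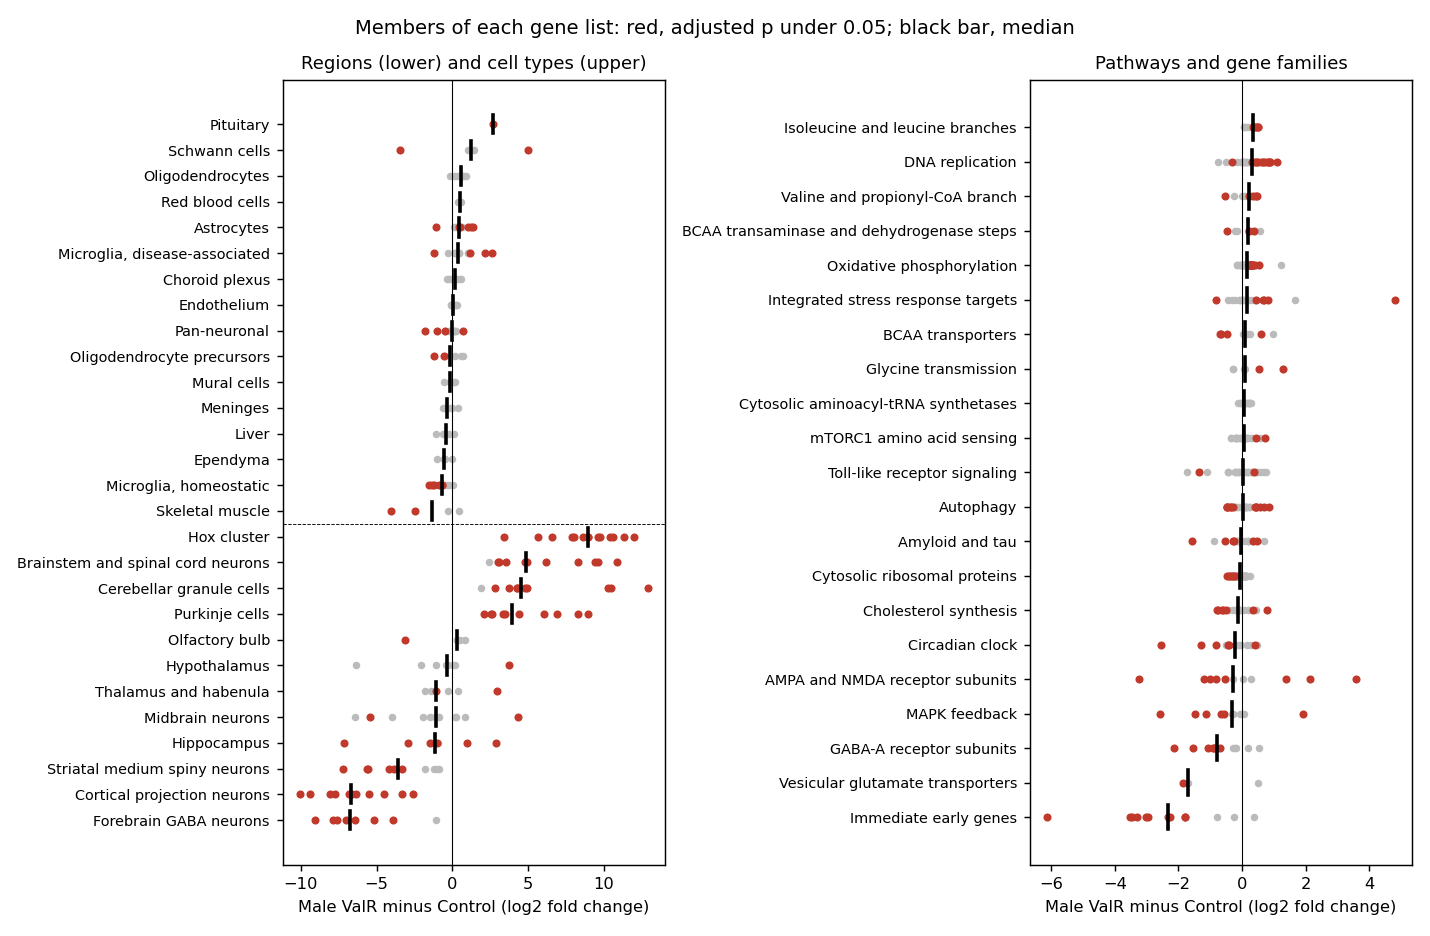
Male ValR minus Control log2 fold change of each tested gene on each list, as points on the horizontal axes, with cell types (upper) and regions (lower) on the left and pathways and gene families on the right. Red points passed adjusted p under 0.05 and black bars are list medians. The cerebellar and brainstem lists lie to the right of 0, with medians of 3.93 to 4.86, as do the Hox genes that passed the filter on low values, forebrain neuron lists to the left, with medians down to -6.75, and most pathway medians lie near 0.

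BCAA breakdown genes changed by small amounts. Of the 8 genes of the transaminase and dehydrogenase steps Bckdha and Bckdk rose and Ppm1k fell, with a list median of 0.19, where 23.5% of all genes passed. Bckdha, the E1 alpha subunit of the dehydrogenase, was 28.6, 31.7, 33.4 and 30.3 CPM in Control and 43.1, 42.8, 36.3 and 39.4 CPM in ValR, a log2 fold change of 0.37 ± 0.08 (adjusted p = 0.00461). The kinase Bckdk, which inactivates the complex, rose by 0.21 ± 0.07 (adjusted p = 0.0449). The phosphatase Ppm1k, which activates it, was 86.8, 75.6, 73.4 and 81.1 CPM in Control and 53.6, 54.1, 59.7 and 63.7 CPM in ValR, a change of -0.47 ± 0.08 (adjusted p = 0.00116). Neither Ppm1k nor Bckdha overlapped between the groups.

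Bcat1, the cytosolic transaminase of neurons, was 84.4, 93.3, 155 and 106 CPM in Control and 158, 213, 152 and 134 CPM in ValR, a change of 0.57 ± 0.21 that did not pass (adjusted p = 0.0626). Control 4 lay within the ValR range for it. Bcat2, the mitochondrial transaminase, gave -0.21 ± 0.13, Bckdhb 0.28 ± 0.13, the E2 subunit Dbt -0.16 ± 0.09 and the E3 subunit Dld 0.17 ± 0.09, none past the threshold.

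In the valine and propionyl-CoA branch 4 of 11 genes rose, Mmab fell, and the median was 0.22, where 11.1% of all genes rose and 12.4% fell. Without Control 1, Control 3, ValR 7 or ValR 12, 2 of the 11 rose. Hibadh, which oxidizes 3-hydroxyisobutyrate, an intermediate of valine alone, was 44.9, 41.7, 52.7 and 45.3 CPM in Control and 60.7, 61.8, 64.4 and 64.0 CPM in ValR, a change of 0.43 ± 0.09 (adjusted p = 0.0042). Hibch, the hydrolase of the preceding step, rose by 0.33 ± 0.10, and Pcca and Pccb, the subunits of propionyl-CoA carboxylase, by 0.48 ± 0.11 and 0.22 ± 0.07. Mmab, which makes the cobalamin cofactor, changed by -0.54 ± 0.17. Acad8, the isobutyryl-CoA dehydrogenase of the valine branch, gave 0.41 ± 0.14 (adjusted p = 0.0518).

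The other 5 genes of the branch did not pass. Mut, the methylmalonyl-CoA mutase, gave 0.27 ± 0.11, Mcee, the epimerase before it, -0.26 ± 0.12, and the crotonase Echs1 0.20 ± 0.10. Aldh6a1, the semialdehyde dehydrogenase, gave 0.10 ± 0.10 and Mmaa -0.0049 ± 0.13. The calls of Hibch, Mmab, Pccb and Bckdk, all with adjusted p between 0.0318 and 0.0449, were each lost without at least 6 of the 8 libraries taken 1 at a time.

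Of the 8 BCAA breakdown genes that passed, Hibadh, Hibch and Pcca were on the hindbrain side, Ppm1k and Mmab on the forebrain side and Bckdha, Bckdk and Pccb in the rest class. In the fit of all 37 libraries their changes were -0.034 for Hibadh, -0.068 for Hibch, -0.040 for Pcca, 0.0052 for Ppm1k, 0.0094 for Mmab, 0.051 for Bckdha, 0.042 for Bckdk and 0.024 for Pccb, all with an adjusted p of at least 0.946. The medians of the 2 lists in that fit were -0.11 and -0.10, and in female ValR against female Control they were 0.0034 and 0.042, with 0 genes past the threshold in females (edgeR, 777 of all genes at unadjusted p under 0.05).

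**Figure D5:**
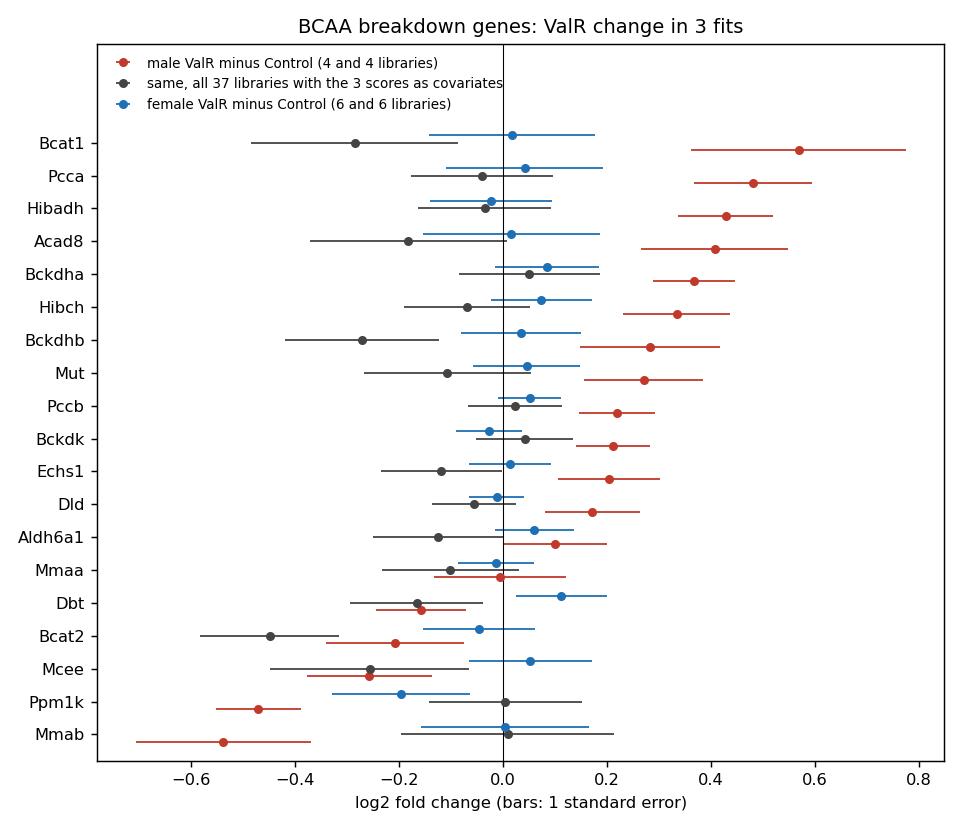
Log2 fold change of each of the 19 BCAA transaminase, dehydrogenase, valine and propionyl-CoA genes in males (red), in the fit of all 37 libraries with the 3 scores as covariates (dark grey) and in females (blue), with bars of 1 standard error. Red points spread from -0.54 to 0.57, and the grey points of Hibadh, Pcca and Ppm1k lie nearer to 0. The grey points of Bcat2 (-0.45 against -0.21) and Mmaa (-0.10 against -0.0049) lie farther from 0, those of Bckdhb (-0.27 against 0.28) and Aldh6a1 (-0.12 against 0.10) lie on the other side of 0 at a like distance, and those of Dbt (-0.17 against -0.16) and Mcee (-0.26 in both) lie beside the red ones.

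Genes of the isoleucine and leucine branches, whose amino acids were not the ones restricted, rose in part as well, where 11.1% of all genes rose and 12.4% fell. Of 9 genes 5 rose, among them Hadh, Mccc1, Mccc2 and Auh, 4 of the 5 on the hindbrain side, with a list median of 0.34 that was -0.10 in the fit of all 37 libraries. Without any 1 of 6 libraries (all but Control 4 and ValR 9) 3 of the 9 rose. Mccc1, a subunit of the leucine-specific carboxylase, was 32.9, 35.5, 32.1 and 38.7 CPM in Control and 48.5, 43.4, 47.6 and 57.3 CPM in ValR. Among 8 BCAA transporters, where 23.5% of all genes passed, Slc43a2 rose and Slc7a8, Slc6a17 and Slc25a44 fell. Slc7a5, the large neutral amino acid transporter of the blood-brain barrier, gave 0.24 ± 0.13 (adjusted p = 0.202).

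Genes that respond to a shortage of amino acids passed at a share near that of all genes or below it. Of 21 targets of the integrated stress response 5 rose and Slc7a11 fell, with a median of 0.15, where 23.5% of all genes passed. The rises numbered 2 without Control 1 or ValR 12 and 3 without Control 3, ValR 7 or ValR 9. Asns, the asparagine synthetase, was 101, 98.5, 90.4 and 93.5 CPM in Control and 92.0, 113, 92.1 and 93.1 CPM in ValR, a change of 0.013 ± 0.10 (adjusted p = 0.95). Atf4, the transcription factor of the response, Psat1 and Phgdh did not pass either. Those that rose were Ddit4, Shmt2, Mthfd2, Ppp1r15a and Fgf21, and Fgf21, 0 in all Controls and at most 0.47 CPM in ValR, passed the filter on low values only through libraries of a restricted diet, which leaves 4 rises of genes detected in every Control library. Of 19 cytosolic aminoacyl-tRNA synthetases 0 passed in edgeR (median 0.075), and of 34 genes of mTORC1 amino acid sensing 2 rose (Flcn and Fnip2, median 0.048).

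The immediate early genes, induced by neuronal activity and highest in forebrain, had the lowest median of the pathway lists. Of 13 genes 10 fell and none rose, with a median of -2.33, where 12.4% of all genes fell, and 9 of the 10 were on the forebrain side. Egr1 was 308, 494, 103 and 257 CPM in Control and 33.8, 38.5, 37.7 and 41.7 CPM in ValR. Egr3 went from 191, 293, 52.5 and 158 CPM to 2.55, 3.86, 1.35 and 2.37 CPM. Arc, a regulator of synaptic AMPA receptors, was 38.0 to 245 CPM in Control and 15.0 to 22.9 CPM in ValR. Control 4, the Control with the lowest forebrain score, was the lowest Control for each of these 3. Nr4a3, in the rest class, fell by 2.27 ± 0.61. In the fit of all 37 libraries the list median was -0.64 with 0 genes past the threshold.

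Receptor subunits changed in both directions, where 11.1% of all genes rose and 12.4% fell. Among 11 AMPA and NMDA receptor genes Grin2c, the NMDA subunit of adult granule cells, Gria4 and Grin3b rose, and Gria2, Gria3, Grin1, Grin2a and Grin2b fell. Of 12 GABA-A subunits 6 fell, among them Gabra2, Gabra3, Gabra4, Gabrb1 and Gabrg3, and none rose. These 12 do not include Gabra6, which is counted with the granule cell markers and rose. Without ValR 10, 3 fell, and the list median of -0.78 turned to 0.21 in the fit of all 37 libraries. Of the vesicular glutamate transporters Slc17a7, the form of cortex and of cerebellar granule cells, fell. Slc6a9 and Slc32a1, the vesicular inhibitory transporter, rose among 7 genes of glycine transmission, and with each library left out in turn 1 to 3 rose. The call of Slc32a1 was lost without Control 3, Control 5, ValR 7, ValR 9 or ValR 10.

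Among 20 genes of amyloid and tau processing Psen2 and Aph1b rose and App, Clu, Cdk5 and Cdk5r1 fell, where 11.1% of all genes rose and 12.4% fell. Without Control 1, Control 5, ValR 7, ValR 10 or ValR 12, 2 of the 20 fell. App was 2017, 2009, 1858 and 2175 CPM in Control and 1668, 1807, 1635 and 1554 CPM in ValR, a change of -0.29 ± 0.10 (adjusted p = 0.0443), and its call was lost without 6 of the 8 libraries taken singly. Mapt, which encodes tau, gave -0.17 ± 0.10 (adjusted p = 0.266). The study aligned its reads to the mouse genome. Reads of the human transgenes may be counted in App and Mapt, and how such reads were treated is not given in the sources used here.

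Of 33 DNA replication genes 12 rose and Pold3 fell, where 11.1% of all genes rose and 12.4% fell. Their median of 0.31 was -0.043 in the fit of all 37 libraries. The hindbrain side, where 49.8% of genes rose, held 16 of the 33 genes and 10 of the 13 that passed. The call of Pold3 was lost without any library but Control 4. Mcm7, a helicase subunit, was 10.4 to 13.2 CPM in Control and 16.2 to 22.9 CPM in ValR. Of 34 autophagy genes 6 rose, all on the hindbrain side, and 6 fell, all on the forebrain side, with a median of 0.029, where 11.1% of all genes rose and 12.4% fell. Without ValR 12, 3 of them rose. The selective autophagy receptor gene Optn rose, as did the transcription factor gene Tfeb, and Becn1 fell. Of 76 oxidative phosphorylation genes 13 rose and none fell (median 0.16), where 11.1% of all genes rose. With each library left out in turn the rises ran from 3, without Control 5, to 13, without Control 4. Of 76 cytosolic ribosomal protein genes 6 fell and none rose (median -0.054), below the 12.4% of all genes that fell, and without ValR 10 only 2 fell.

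The remaining lists held genes that moved in both directions, where 11.1% of all genes rose and 12.4% fell. Of 22 cholesterol synthesis genes 5 fell, among them Hmgcs1, Fdft1, Msmo1 and Srebf2, and 2 rose, among them Insig1. With each library left out in turn 5 to 6 of these fell and 1 to 2 rose. Of 15 clock genes Per2, Cry2, Tef, Hlf and Npas2 fell and Nr1d2 rose. Without Control 3, Control 5, ValR 7 or ValR 10, 2 of the clock genes fell. The call of Nr1d2 was lost without Control 1, Control 3, Control 4, ValR 10 or ValR 12. Of 11 MAPK feedback genes Dusp4, Dusp6, Dusp14, Spred1 and Spred3 fell and Dusp5 rose. With each library left out in turn 5 to 6 of the 11 fell and 0 to 1 rose in edgeR. Of 29 genes of Toll-like receptor signaling Nfkb1 rose and the chemokine Cxcl10 fell, and with each library left out in turn 0 to 2 rose and 0 to 2 fell in edgeR.

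Within the rest class, among protein-coding DEGs without overlap and with a mean log2 CPM of 1 or more, the 8 genes that rose most were Serpinb1b, Gpnmb, Stk32a, Fzd10, Ngfr, Itih3, Lgr6 and Acy3. Stk32a, a kinase, was 11.2, 3.55, 4.99 and 6.27 CPM in Control and 34.5, 35.0, 30.9 and 27.4 CPM in ValR, a log2 fold change of 2.29 ± 0.27 (adjusted p = 0.000147). Ngfr, the p75 neurotrophin receptor, was 1.98, 1.80, 3.39 and 2.26 CPM in Control and 8.22, 9.94, 8.97 and 7.44 CPM in ValR, a change of 1.86 ± 0.21 (adjusted p = 0.000131). The ValR libraries lay close together for both genes.

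Gpnmb was 3.95, 4.36, 5.57 and 7.10 CPM in Control and 35.9, 56.0, 11.4 and 30.7 CPM in ValR, a change of 2.65 ± 0.59 (adjusted p = 0.00584). Serpinb1b, a serine protease inhibitor, was 0.76 to 2.82 CPM in Control and 22.4, 31.1, 4.22 and 3.72 CPM in ValR. The rise of Serpinb1b was several times larger in ValR 7 and ValR 9, the libraries with Hoxb8, than in the other 2. Itih3, Lgr6 and Acy3 rose by 1.74 ± 0.53, 1.71 ± 0.55 and 1.52 ± 0.41, and their calls were lost without Control 1 and, for the first pair, without 4 other libraries as well.

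Under the same conditions the 8 rest genes that fell most were Rxfp1, Ccn3, Cpne7, Alox12b, Smoc2, Rspo2, Nr4a2 and BC030499. Rest genes of lower level, such as Myh4, at least 3.20-fold lower in ValR against a floor of 3 counts per library, are not ranked among them. Rxfp1, the relaxin receptor, was 22.4, 38.2, 34.3 and 32.0 CPM in Control and 1.31, 2.37, 0.29 and 0.71 CPM in ValR, a change of -4.79 ± 0.73 (adjusted p = 0.000497). Nr4a2, a nuclear receptor of dopamine neurons and of the claustrum, was 55.1, 87.6, 47.3 and 33.9 CPM in Control and 9.75, 6.76, 6.22 and 7.31 CPM in ValR, a change of -2.92 ± 0.54 (adjusted p = 0.00167). For both genes Control 4 lay among the other Controls, and the part of regional content in these values was not tested. Ccn3, a matricellular protein, fell by 4.03 ± 0.63, and Rspo2, a Wnt agonist, by 2.97 ± 0.67. None of these 16 genes passed in the fit of all 37 libraries (adjusted p of at least 0.386), and each change was smaller there. The rises ran from 0.28 for Acy3, 0.48 for Lgr6 and 0.54 for both Itih3 and Fzd10 to 1.82 for Ngfr. The falls ran from -1.11 for Smoc2 to -2.30 for Nr4a2 and -3.60 for Rxfp1.

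With the female slopes as fixed offsets, which carry no error of the slopes, 4 of the 16 passed. These were Rxfp1 (-4.26, adjusted p = 0.0151), Nr4a2 (-2.67, adjusted p = 0.0359), BC030499 (-1.87, adjusted p = 0.0326) and Stk32a (1.72, adjusted p = 0.0234). The other 12 had adjusted p from 0.0620 for Ngfr (1.67) to 0.984 for Itih3 (-0.036). Fzd10 (0.19) and Lgr6 (0.38) were also near 0 there, and Gpnmb (2.49) and Ccn3 (-2.24) were not.

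The ValR effect was compared between the sexes in 1 model of all 37 libraries. It differed for 955 genes, 4.25% of 22465, of which 152 had the higher effect in males and 803 the lower (edgeR interaction term, adjusted p under 0.05). With the hindbrain score as a covariate 0 genes differed (1600 at unadjusted p under 0.05), limma voom called 29, and with single male libraries left out the count ran from 191 without ValR 10 to 1516 without Control 4. For Tbr1 the male change of -7.78 stood against -0.14 in females (interaction adjusted p = 0.00558), and for Rxfp1 -4.79 stood against 0.41 (interaction adjusted p = 0.00785). For Gabra6 the females gave -0.27, and the interaction did not pass (adjusted p = 0.0806).

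ValR-fed males were also set against males on the other restricted diets. Against the 3 IleR males 0% of genes differed in edgeR (628 of 22197 at unadjusted p under 0.05, and 0 calls in limma voom). Against the 3 LeuR males 383 genes were higher and 228 lower in ValR, 2.75% together. Without ValR 7, ValR 10 or ValR 12 that count was 0, and without ValR 9 it was 1990. With the hindbrain score as a covariate it was 0 (3731 at unadjusted p under 0.05). Tbr1 differed from LeuR by -4.10 log2 units (adjusted p = 0.0481), and its difference of -0.89 from IleR did not pass (adjusted p = 1).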

How the data were processed

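Bulk brain RNA-seq libraries were analysed from the expected counts per gene that the authors deposited, and these were rounded to whole numbers. The submitters' processing notes name GRCm38, R 3.4.3, edgeR and limma, and the study's methods name voom and the removal of outlier samples. The aligner is not given in the sources used here. The deposited tables of differential expression hold the authors' own fold changes, p-values and adjusted p-values and were not used. Of 24 male samples, 10 were not analysed here. GENCODE M21 gave symbols for 52135 of 55416 gene identifiers.

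The edgeR 4.0.16 quasi-likelihood test (R 4.3.3, TMM) was fitted to the 14 male libraries by diet, on the genes that all libraries of 1 or more diets detected with a minimum count of 1, and p-values were adjusted by Benjamini-Hochberg over all tested genes. limma 3.58.1 and DESeq2 1.42.0 served as alternatives, beside other filters, thresholds, covariates, offsets and the omission of each library. Scores used log2 CPM with a prior count of 2 and an exact permutation test. Folds against a group at or under 3 counts per library are bounds.

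Named genes were the 8 largest rises and 8 largest falls among protein-coding DEGs whose groups did not overlap and whose log2 CPM averaged 1 or more, the same within the rest class, any gene past the threshold with the hindbrain covariate (0 genes, 1407 at unadjusted p under 0.05), every gene of the 2 BCAA lists that hold the valine pathway and the 3 most abundant genes of each other list. Other list genes past the threshold are named to account for a count. The members and the gene lists (12 of regions, 16 of cell types and 21 of pathways) were chosen with earlier results of these data known. The tests were checked on simulated data. Counts of libraries within a group differed by a chi-square per degree of freedom of 9.09 to 57, so none was treated as a duplicate. The protocols describe both polyA and total RNA. Some genes that the rule would name are not reported here.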

Additional observations from a re-analysis of the deposited data

Results flagged for a closer look

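For 36 of 368 groups of 4 libraries (9.78%) the highest or lowest library stood apart from the other 3 of its diet by Dixon's test, 29 at the high end and 7 at the low end. For independent, normally distributed values chance alone gives about 1 in 20. CPM values of related genes need not be either, so no excess is read from this. Control 4 accounted for 15 of them and ValR 9 for 7. Control 4 stood apart, in CPM, at Slc6a5 2.75, Tbr1 61.9, Acy3 2.11, Pccb 62.3, Aldh6a1 108, Syt1 1052, Lhx6 9.80, Glra1 6.15, Barhl2 4.42, Otp 0.96, Sdha 423, Tal1 18.1, Tcf7l2 105, Slc17a6 241, Dcn 54.9. For ValR 9 the values were Alox12b 1.89, Acad8 29.6, Prx 5.48, Psat1 196, Mylpf 0.473, Asns 113 CPM. For ValR 12 the values were Kcnj4 1.03, Crym 0.128, Bcat2 16.2, Hlf 125, Spred3 31.3 CPM. For ValR 7 the values were Chrm1 0.80, BC030499 3.13, Alb 0.582 CPM. For Control 1 the values were Cdhr1 34.5, Hmgcs1 287, Sesn3 282 CPM. For Control 5 the values were Nr1d2 150, Alb 1.21 CPM. For Control 3 the values were BC030499 18.4 CPM. The forebrain score of ValR 9, 1.37, stood above those of the other ValR libraries. The part of dissection or of diet in these values was not tested.

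The ValR effect differed between the sexes for 955 genes by the interaction term in edgeR. Among the genes with the largest male changes, the male minus female effects on the log2 scale that passed were Ddn -7.96, Tbr1 -7.64, Kcnh3 -7.01, Kcnj4 -6.91, Chrm1 -6.93, Crym -6.54, Stk32a 2.29, Rxfp1 -5.20, Ccn3 -4.60, Cpne7 -4.64, Rspo2 -3.30, Nr4a2 -3.47, BC030499 -2.21. The hindbrain score differed by diet in males and not detectably in females (difference 0.36, exact permutation p = 0.833), and 0 genes passed with that score as a covariate (1600 at unadjusted p under 0.05).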

How the results depend on the processing

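Normalization by DESeq2 size factors, the DESeq2 Wald test, limma voom, both other filters on low counts and the fit of the 8 libraries alone kept each count of ValR against Control within 1.5 times of its value. At adjusted p under 0.01 the counts were 1163 up and 1616 down, 61 and 173 in the rest class, 1047 up on the hindbrain side and 1442 down on the forebrain side. With the hindbrain score as a covariate (1407 genes at unadjusted p under 0.05), with the cerebellar and brainstem scores (1521) or in the fit of all 37 libraries chosen after seeing the data (1661), each of these 6 counts was 0 in edgeR. Offsets from the female slopes gave 175 up and 135 down, 51 and 49 in the rest class, 12 up on the hindbrain side and 40 down on the forebrain side. With regional genes defined by the slope within diets over the male libraries, the regional class held 329 genes, the rest class 2390 up and 2554 down, the hindbrain side 78 up and the forebrain side 183 down.

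With each library left out in turn, genes up ran from 1711 to 2610, genes down from 2132 to 2936, rest genes up from 166 to 530, rest genes down from 337 to 611, hindbrain-side genes up from 1400 to 2058 and forebrain-side genes down from 1765 to 2286. The hindbrain score difference ran from 8.85 to 9.99, with exact permutation p = 0.0286 each time, and was 10.4 with a prior count of 0.5 and 9.29 without TMM. Genes whose ValR effect differed by sex numbered 29 in limma voom, 0 with the hindbrain score (1600 at unadjusted p under 0.05) and 191 to 1516 with libraries left out. ValR against LeuR gave 0 genes with the hindbrain score (3731 at unadjusted p under 0.05) and 0 to 1990 with ValR libraries left out, the 0 counts without ValR 7 (4741 at unadjusted p under 0.05), ValR 10 (4019) and ValR 12 (3928). ValR against IleR stayed at 0 in edgeR and limma voom under these settings.

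Among named genes that passed in ValR against Control and were above the floor in both groups, some reversed in sign under the 4 fits that held regional content. Their log2 fold changes follow, and genes that did not pass are not listed. With the hindbrain score these were Slc6a5 -0.78, Gpnmb -0.68, Acy3 -1.60, Hibadh -0.13, Hibch -0.083, Mmab 0.15, Syt1 0.057, Slc6a9 -0.25, Aldoc -0.42, Lhx6 0.97, Slc6a17 0.042, Gpr17 0.053, Glra1 -1.17, Rpa1 -0.19, Slc43a2 -0.061, Wfs1 0.20, Grin1 0.090, Dlx1 1.94, Spred3 0.20, Gria2 0.49, Nfkb1 -0.093, Rplp1 0.028, Tef 0.26, Map2 0.22. With the cerebellar and brainstem scores they were Cbln3 -0.66, Fat2 -1.50, Pcp2 -0.89, Slc6a5 -1.38, Nrk -0.61, Gpnmb -0.024, Acy3 -0.72, Hibadh -0.14, Pcca -0.12, Hibch -0.042, Mmab 0.56, Car8 -0.60, Aldoc -0.046, Glra1 -0.40, Rpa1 -0.15, Barhl2 -0.033, Slc43a2 -0.25, Gabarapl1 0.22, Prox1 -0.044, Spred3 0.45, Csf1r 0.0015, Rplp1 0.21, Pdgfra 0.25, Map2 0.26, Nr1d2 -0.22. With the offsets they were Slc6a5 -0.22, Nrk -0.48, Itih3 -0.036, Ppm1k 0.053, Hibch -0.084, Mmab 0.044, Car8 -0.42, Srebf2 0.047, Cdhr1 0.80, Slc6a9 -0.29, Aldoc -0.12, Slc1a2 0.039, Hmgcs1 0.11, Glra1 -1.22, Rpa1 -0.051, Cx3cr1 0.36, Barhl2 -1.22, Slc43a2 -0.30, Wfs1 0.76, Grin1 0.033, Gabarapl1 0.23, Prox1 -0.24, Spred3 0.076, Gria2 0.11, Csf1r 0.24, Nfkb1 -0.28, Rplp1 0.29, Map2 0.035, Nr1d2 -0.25, App 0.038, of which 0 passed the threshold. In the fit of all 37 libraries they were Fat2 -0.29, Slc6a5 -0.60, Nrk -0.54, Ppm1k 0.0052, Hibadh -0.034, Pcca -0.040, Hibch -0.068, Mmab 0.0094, Car8 -0.56, Cdhr1 0.36, Slc6a9 -0.18, Aldoc -0.27, Glra1 -0.58, Rpa1 -0.15, Cx3cr1 0.17, Barhl2 -0.62, Slc43a2 -0.29, Wfs1 0.53, Grin1 0.025, Gabarapl1 0.12, Spred3 0.074, Gria2 0.20, Nfkb1 -0.27, Rplp1 0.14, Map2 0.044, Nr1d2 -0.11. The cause was not tested.

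No paired analysis was possible because no replicate number occurs in more than 1 diet. Diet and regional content cannot be told apart in the male libraries, and the median standard error was larger with the hindbrain score, so a count of 0 there does not show that no gene differed by diet. Depth was similar between the groups and limits the genes near the floor of 3 counts, such as the Hox genes, whose folds are bounds and were not followed across the alternatives.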

Other observations

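Single libraries held genes of small structures that their group did not share, named here after their values were seen. Control 4 held the midbrain genes Slc6a3, Pax7 and Pou4f2 at 31.2, 15.1 and 12.9 CPM, and the other Controls held at most 0.35 CPM of each. ValR 7 and ValR 9 held Hoxb7 at 7.42 and 6.09 CPM, and ValR 10 and ValR 12 held none. ValR 9 also held the peripheral myelin gene Prx at 5.48 CPM.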
